A study of Cricetulus griseus with 8 samples.

Results

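The genes described here are 6 transporters of the solute carrier 6 family, Slc6a4, Slc6a6, Slc6a8, Slc6a9, Slc6a15 and Slc6a17, taken by symbol from a table of 26776 named genes. The set was drawn up because Slc6a4 was lower in 1 of the 2 conditions, so the difference between conditions is given for all 6 as a description, with no p-value. The RNA came from LR73, a Chinese hamster (Cricetulus griseus) line labelled as fibroblast and grown in alpha-MEM medium with serum. A group of 4 libraries came from LR73 phagocytes alone, and a group of 4 from LR73 phagocytes cultured together with apoptotic Jurkat cells, a human T cell lymphoma line. Before the co-culture the Jurkat cells had been given 1500 mJ of UV-C light and then kept 4 h in culture. Per the design text these are biological replicates, but how cultures were kept apart is not stated in the labels. The p-values below measure the spread between these samples, which may be technical, and the length of the co-culture is not given in the sources used here.

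Most SLC6 proteins sit in the plasma membrane and couple the inward movement of sodium, and mostly chloride, to the uptake of a small solute. The family falls into a monoamine branch (serotonin, noradrenaline, dopamine), a branch for GABA, taurine, betaine and creatine, a glycine and proline branch, and a branch for neutral amino acids. In neurons they end a synaptic signal by clearing the transmitter, while in most other cells the taurine and creatine carriers serve cell volume and energy buffering.

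Between 22.7 and 29.7 M reads per library were counted in named genes. Values below are normalized counts, which are reads divided by 1 size factor per library. Fold changes are on the log2(normalized count + 1) scale, from limma over the 13494 genes that averaged 10 normalized counts or more, and a gene is called at an adjusted p under 0.05 over all of them. Alone library 1 stood apart, at -25.1 on the leading principal component (36.8% of the variance) against -9.13 to -5.65 for the other alone libraries and 9.82 to 13.6 for the co-cultures. Of 14 fibroblast markers in the table, 10 averaged 10 normalized counts or more, led by Vim and Fn1, but Col1a1 and Col1a2 were at trace level (4 and 10 reads in all) and Thy1 had none. Their summed level was 162191 to 166248 normalized counts alone and 188462 to 190466 in co-culture. The higher sum came mostly from Vim (means of 111964 and 130760) and Col6a1 (9418 and 14056), while the means of S100a4 (2002 and 1740), Dcn (953 and 767), Sparc (7773 and 7328), Lum and Fap were lower in co-culture.

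Reads were found for 7 genes named Slc6a and a number. The noradrenaline transporter Slc6a2, the GABA and betaine carriers Slc6a11, Slc6a12 and Slc6a13, the proline carrier Slc6a7, and Slc6a14, Slc6a16, Slc6a18 and Slc6a19 were at 0 in all 8 libraries. A 0 in 1 library taken by itself allows an expected count of up to about 3 reads, and 0 in all 8 allows less per library. LR73 cells thus gave reads for 1 monoamine carrier, Slc6a4, for Slc6a6 and Slc6a8 among the osmolyte and creatine carriers, for the glycine carriers Slc6a9 and Slc6a5, and for Slc6a15 and Slc6a17 among the neutral amino acid carriers. All 7 but Slc6a5 are among the 6 genes described. No transcript lengths were used here, so levels are compared between libraries and not between genes.

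**Figure D1:**
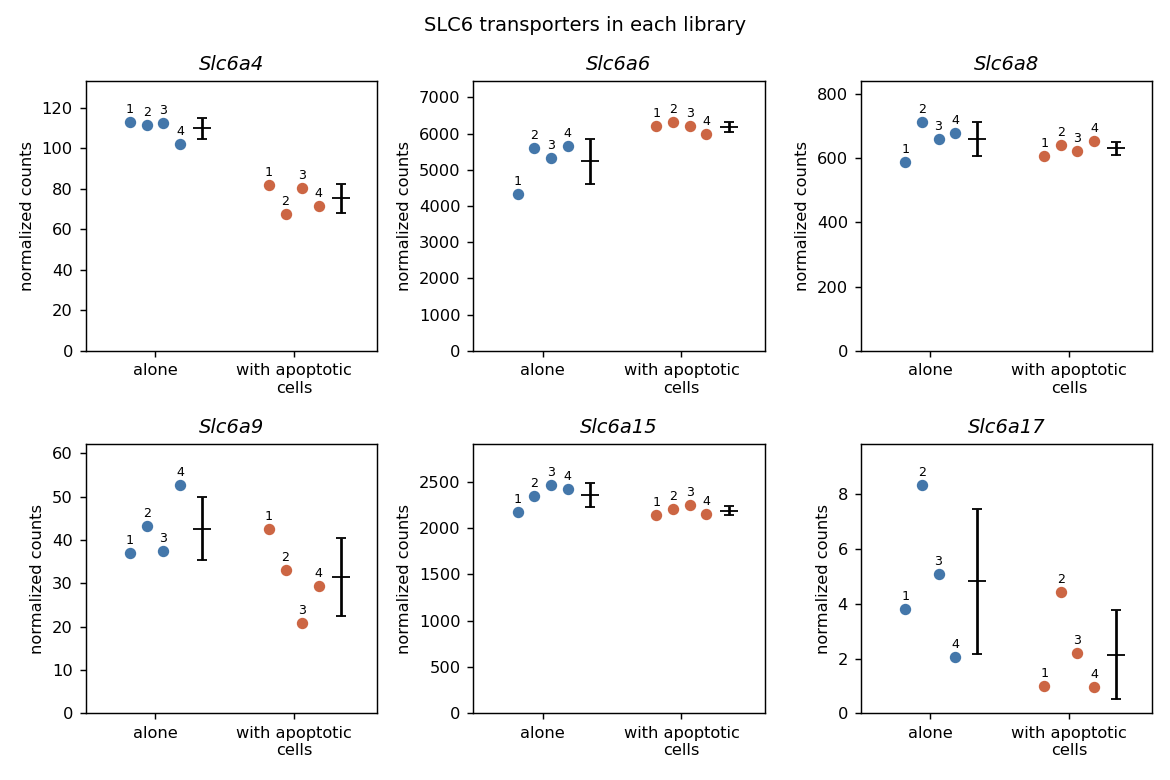
Normalized counts of the 6 transporters in each library (points, with library numbers), for LR73 cells alone and with apoptotic cells, with the mean and SD of 4 libraries beside them. Slc6a4 lay at 67.5 to 82.0 with apoptotic cells, below all 4 alone libraries, and Slc6a6 at 5980 to 6316, above all 4.

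Slc6a4 encodes the serotonin transporter SERT, the target of the selective serotonin reuptake inhibitors. In cells alone it had 113, 112, 113 and 102 normalized counts in libraries 1 to 4, and in co-culture 82.0, 67.5, 80.2 and 71.4. The 4 co-culture libraries were all below the lowest alone library, and the level of Slc6a4 decreased by 31.5% from 110 ± 5.06 to 75.3 ± 6.96 (SD, n = 4 per group). On the log2 scale Slc6a4 was lower by a fitted difference of -0.54 (SE 0.09), which is further from 0 than that of 97.5% of tested genes. The set was chosen because Slc6a4 was lower, so nothing is read from this rank. The difference rested on 61 to 134 reads per library. The coefficient of variation of Slc6a4 within a group was 4.61% alone and 9.25% in co-culture, while counting error alone would give 9.29% and 11.7%. The SE of 0.09 rests on this narrow spread, and DESeq2, fitted on the reads, gave -0.55 with SE 0.14. In RNA from whole cultures, fewer cells with the transcript and less transcript per cell cannot be told apart. Left-out libraries moved the difference of Slc6a4 between -0.59 and -0.49, and it was -0.53 without alone library 1.

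Serotonin handling around SERT was examined through genes that are not members. This list and those below were drawn up with earlier results of these data known, so their calls are not independent evidence. With all libraries, limma called 11.7% of all tested genes in either direction, the share to set beside each count of 0 below. Counts at an unadjusted p under 0.05, in the lists and the neighbours, come without the share of all tested genes. That share cannot be below 11.7%, and nothing is read from these counts. Of 26 genes listed for serotonin synthesis, storage, breakdown, low-affinity uptake and receptors, 7 could be tested. Among the 7 were Tgm2 and S100a10, which belong to none of these classes. Of the 7, 1 rose and none fell by limma, where 6.36% of all tested genes were called higher. The gene that rose was Htr1b, the Gi-coupled serotonin receptor 5-HT1B. Htr1b had 969, 1011, 962 and 1059 normalized counts alone and 1439, 1370, 1428 and 1287 in co-culture. The groups did not overlap, and the log2 fold change of Htr1b was 0.46 (SE 0.05, limma adjusted p = 0.000302). Any gene higher in co-culture runs opposite to Slc6a4, which was chosen as lower there, so nothing is read from the pair. Maob, an oxidase that breaks down monoamines, stood at 257 ± 11.6 and 236 ± 11.0 (n = 4 per group, SD, with a log2 change of -0.12 with SE 0.06, adjusted p = 0.258 by limma). Serotonergic cell markers were near 0 in both groups. The tryptophan hydroxylases Tph1 and Tph2, which start serotonin synthesis, had 34 and 4 reads over all 8 libraries, the decarboxylase Ddc had 1, and Fev, Htr1a and Chga had none. Summed over 9 such markers, the level was 7.60 to 12.2 normalized counts alone and 3.32 to 13.8 in co-culture. The median log2 fold change of the 7 tested genes of this list, Tgm2 and S100a10 included, was -0.003, beside 0.001 for all tested genes.

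Proteins that carry SERT to the surface or modify it were examined next. SEC24C, a cargo adaptor of the COPII coat, takes SERT out of the endoplasmic reticulum, and other SLC6 carriers use SEC24D. Of 12 such genes 10 were tested by limma at the threshold above, and 0 were called with all libraries, with 1 at an unadjusted p under 0.05 and 0 by edgeR or DESeq2. The smallest adjusted p among them were those of Sec24a (a log2 change of 0.16 with SE 0.07, adjusted p = 0.173 by limma) and Mapk14, the kinase p38 alpha (-0.06, SE 0.03, limma adjusted p = 0.28). Sec24c stood at 5247 ± 492 normalized counts alone and 5088 ± 116 in co-culture (SD, n = 4 per group). Without alone library 1, 2 of the 10 passed in the lower direction, where 12.5% of all tested genes did so. These were Sec24c (-0.11) and Mapk14 (-0.08). Itgb3, an integrin that binds SERT in platelets, had 1 read in all.

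Slc6a6 encodes TauT, which takes up taurine, an amino sulfonic acid that cells use as an osmolyte. It had 4339, 5613, 5316 and 5664 normalized counts alone and 6204, 6316, 6213 and 5980 in co-culture. The groups did not overlap, and alone library 1 was the lowest of all. The mean of Slc6a6 was 18.1% higher, 5233 ± 616 against 6178 ± 142 (SD, n = 4 per group), with a log2 fold change of 0.25 (SE 0.07, 95% interval 0.08 to 0.41). Slc6a6 was not called with all libraries, where its SE would have asked for a difference of 0.254 in place of the 0.247 found. Alone library 1 carried most of the spread, 0.35 below the mean of the other alone libraries on the log2 scale, a distance larger than in 81.8% of tested genes. Without alone library 1 the alone mean of Slc6a6 was 5531 ± 188 (n = 3), the fold change shrank to 0.16 (SE 0.03) and the gene was called. Slc6a6 was also called without alone library 2 (0.28, SE 0.08), when 9.87% of tested genes were.

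A list of taurine genes that leaves out the carrier gave no call, and with all libraries the carrier was not called either. Of 13 listed for taurine synthesis, conjugation and volume-regulated release, 7 were tested by limma. With all libraries 0 passed, beside 11.7% of all tested genes, and without alone library 1 also 0, beside 26.0%. EdgeR and DESeq2 called 0 as well. At an unadjusted p under 0.05 there was 1, Lrrc8e. Lrrc8e, a subunit of the volume-regulated anion channel that lets taurine out, stood at 419 ± 48.9 and 474 ± 17.1 normalized counts (n = 4 per group, SD, with a log2 change of 0.19 with SE 0.08, adjusted p = 0.179 by limma). Csad, which makes the taurine precursor hypotaurine, stood at 531 ± 28.4 and 571 ± 30.9 (a log2 change of 0.11 with SE 0.06, adjusted p = 0.276 by limma). The median of the 7 was 0.11, beside 0.001 for all tested genes, and 0.04 without alone library 1. Cdo1, the dioxygenase that feeds taurine synthesis, was at 6.59 and 3.38 normalized counts, too low to be tested.

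Among 10 genes of other osmolytes, 7 were tested, 1 rose and 1 fell, where 6.36% of all tested genes were called higher and 5.31% lower. Aqp1, a water channel, rose from 1993 ± 141 to 2429 ± 83.1 normalized counts (n = 4 per group, SD, with a log2 change of 0.29 with SE 0.05, adjusted p = 0.00594 by limma). Gdpd5, a phosphodiesterase that degrades the osmolyte glycerophosphocholine, fell from 350 ± 18.9 to 263 ± 9.03 (a log2 change of -0.41 with SE 0.06, adjusted p = 0.00204 by limma). In neither gene did the groups overlap. Nfat5, the transcription factor that drives osmolyte carriers in hypertonic medium and is known to act on Slc6a6, stood at 5782 ± 1166 and 5987 ± 318 normalized counts (a log2 change of 0.07 with SE 0.12, adjusted p = 0.74 by limma). Slc5a3, the inositol carrier of the same response, had means of 109 and 91.5, and was called lower without alone library 1 (-0.36), which made 2 lower genes in this list in a fit that called 12.5% of all tested genes lower.

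Slc6a8 encodes the creatine transporter CRT. It had 590, 713, 662 and 678 normalized counts alone and 607, 640, 624 and 653 in co-culture. The co-culture libraries lay inside the range of the alone libraries, whose lowest value was again library 1. The means of Slc6a8 were 661 ± 51.9 and 631 ± 19.6 (SD, n = 4 per group), a log2 difference of -0.06 (SE 0.06, 95% interval -0.20 to 0.07). Without alone library 1 the groups did not overlap, the difference of Slc6a8 was -0.12 (SE 0.05), and it was not called. Of 8 genes for creatine synthesis, transport and creatine kinases, 2 passed the filter, limma called 0 of them, also at an unadjusted p under 0.05, and so did edgeR and DESeq2. Gatm and Gamt, the enzymes that make creatine from arginine and glycine, had log2 fold changes of 0.16 (SE 0.24, limma adjusted p = 0.708) and 0.001 (SE 0.07, limma adjusted p = 0.995). The brain-type creatine kinase Ckb was at 6.59 and 7.57 normalized counts and Ckmt2 at 0.46 and 0.55, while Ckm had no read.

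Slc6a9 encodes GlyT1, the glycine transporter of glia and many peripheral cells. It had 37.0, 43.4, 37.6 and 52.7 normalized counts alone and 42.5, 33.2, 20.9 and 29.4 in co-culture. In co-culture 3 of 4 libraries were below all alone libraries, and library 1 lay among them. The means of Slc6a9 were 42.7 ± 7.30 and 31.5 ± 8.95 (SD, n = 4 per group), a log2 difference of -0.46 (SE 0.21, 95% interval -0.92 to 0.007). With 19 to 52 reads per library, this gene could have been called only at a log2 difference of about 0.72 or more in size. Leaving out co-culture library 3 gave -0.28 for Slc6a9 and leaving out co-culture library 1 gave -0.61, and it was not called in either case.

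Of 17 genes for glycine synthesis, cleavage, vesicle loading and receptors, 9 were tested by limma and 0 were called with all libraries. At an unadjusted p under 0.05 there were 3, Gcsh, Gldc and Gcat. Gcsh, the lipoyl carrier of the glycine cleavage system, stood at 3012 ± 251 and 2648 ± 87.4 normalized counts (n = 4 per group, SD, with a log2 change of -0.18 with SE 0.06, adjusted p = 0.0581 by limma), and was called lower without alone library 1 (-0.13) or alone library 2. DESeq2 called Gcsh lower too, and edgeR called 0 genes of the list. Gldc, the decarboxylase of the same system, stood at 58.5 ± 7.49 and 71.8 ± 3.33 (a log2 change of 0.30 with SE 0.12, adjusted p = 0.127 by limma), with no overlap between the groups. The serine hydroxymethyltransferases Shmt1 and Shmt2, which make glycine from serine, had log2 fold changes of -0.01 and 0.02.

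Slc6a9 is a known target of ATF4, a transcription factor of the amino acid and endoplasmic reticulum stress response. Of 15 tested genes of that response, 9 fell and none rose by limma, where 5.31% of all tested genes were called lower. The median log2 fold change was -0.24, beside 0.001 for all tested genes, and without alone library 1 the count was 10, where 12.5% of all tested genes were called lower, and the median -0.21. Trib3, a pseudokinase, fell from 844 ± 35.5 to 409 ± 35.8 normalized counts (n = 4 per group, SD, with a log2 change of -1.04 with SE 0.07, adjusted p = 1.1e-05 by limma). Nupr1, a small chromatin protein, fell by 0.71, Atf4 itself by 0.57 and Ddit3, which encodes the partner factor CHOP, by 0.40 on the log2 scale. The groups did not overlap in any of these 4. The list was known from earlier results of these data to hold falling genes, so its count is not independent evidence.

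**Figure D2:**
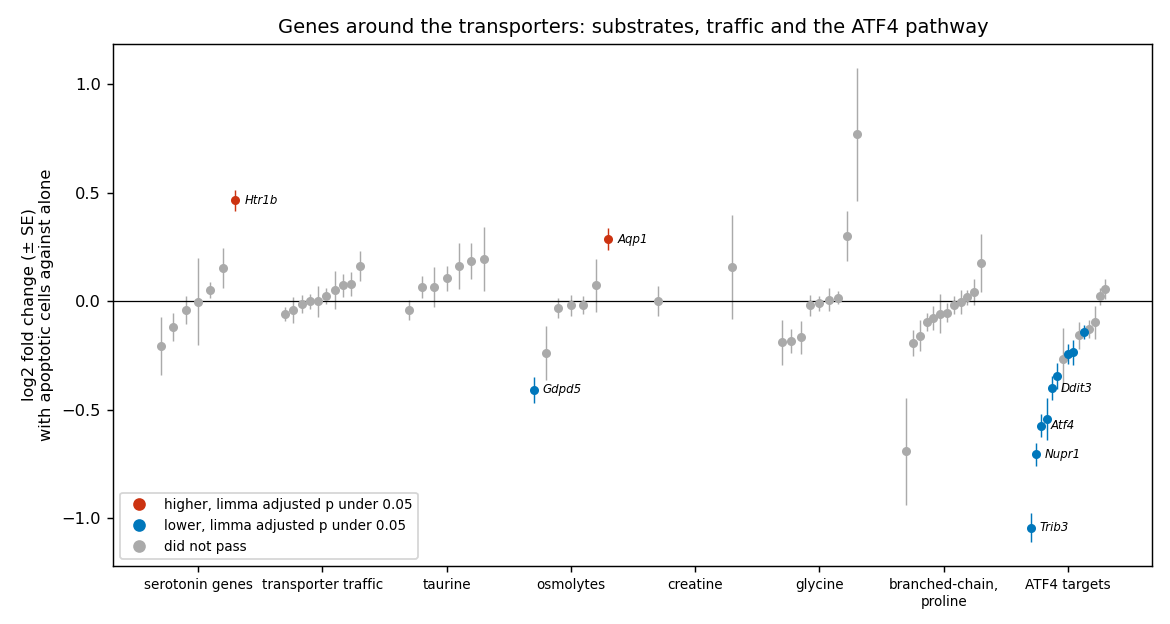
Log2 fold change with its SE for each tested gene of the 8 lists around the transporters, sorted within a list. In the ATF4 list 9 genes were called lower (the 4 with the smallest adjusted p named), and in the other 7 lists Htr1b and Aqp1 were called higher and Gdpd5 lower.

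Slc6a15 encodes B0AT2, a carrier of branched-chain amino acids and proline that is best known from brain. It had 2176, 2347, 2467 and 2425 normalized counts alone and 2143, 2203, 2253 and 2153 in co-culture. In co-culture 2 of 4 libraries fell below all alone libraries, and the overlap came from alone library 1, the lowest of its group. The means of Slc6a15 were 2354 ± 128 and 2188 ± 50.7 (SD, n = 4 per group), a log2 difference of -0.10 (SE 0.04, 95% interval -0.20 to -0.007), not called over all genes. Without alone library 1 the alone mean was 2413 ± 61.0 (n = 3), the groups did not overlap, and Slc6a15 was called lower at -0.14 (SE 0.03).

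Of 15 genes for branched-chain amino acid breakdown and proline metabolism, 12 were tested by limma and 0 were called with all libraries, nor by edgeR or DESeq2. At an unadjusted p under 0.05 there were 3, all lower in co-culture. The share of all tested genes at that cut is not given, so nothing is read from this count. Ppm1k, the phosphatase that switches on the branched-chain ketoacid dehydrogenase, stood at 414 ± 22.6 and 362 ± 17.9 normalized counts (n = 4 per group, SD, with a log2 change of -0.19 with SE 0.06, adjusted p = 0.0652 by limma). Aldh18a1, which starts proline synthesis, stood at 36.6 ± 4.58 and 23.4 ± 9.38 (a log2 change of -0.69 with SE 0.25, adjusted p = 0.102 by limma). Without alone library 1 both were called lower, as was Slc25a44, a mitochondrial carrier of branched-chain amino acids (-0.12), and without co-culture library 3 Aldh18a1 was. The fit without alone library 1 called 12.5% of all tested genes lower. The median of the 12 was -0.06.

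Slc6a17 encodes NTT4, a neutral amino acid carrier of synaptic vesicles, and was at trace level in LR73 cells. It had 4, 10, 5 and 2 reads in the alone libraries and 1, 4, 2 and 1 in the co-cultures, 21 against 8 in all. The exact Poisson 95% intervals of these sums were 13.0 to 32.1 and 3.45 to 15.8 reads, and they overlap. They cover counting error only. Per read sequenced, the ratio of co-culture to alone for Slc6a17 was 0.41 with a 95% counting interval of 0.16 to 0.97. The libraries of the groups overlapped, and the gene was too low to be tested.

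Slc6a5, the glycine transporter GlyT2 of inhibitory neurons and the 1 other family gene with reads, had 0, 1, 0 and 0 reads alone and 3, 1, 3 and 0 in co-culture. The ratio per read sequenced was 7.55, with a 95% counting interval of 0.97 to 340.3. Marker genes of T cells, the type of the added cells, were counted at trace level. Of 20 T cell markers averaging under 10 reads, 11 had more reads in co-culture and 1 fewer, 22 reads alone against 65 in co-culture. Lck went from 0 to 9 reads, Zap70 from 0 to 5 and Cd3e from 0 to 2, while Cd3d, Cd3g and Cd2 were at 0 throughout. Over all 24 markers in the table, 4 of which LR73 cells express at a mean of 10 or more, the summed level was 825 to 948 normalized counts alone and 704 to 762 in co-culture. How reads that fit both species were counted is not given in the sources used here, and the part of human RNA in the Slc6a5 reads was not tested.

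Over the 5 transporters that could be tested, limma called 1, Slc6a4, in the lower direction, where 5.31% of all tested genes were called lower and 11.7% in either direction. Since the set was chosen on this contrast, nothing is read from that count. The groups did not overlap in 2 of the 5, Slc6a4 and Slc6a6, beside 21.2% of all tested genes. Without alone library 1, when 26.0% of tested genes were called, the called members were 3, Slc6a4 and Slc6a15 lower and Slc6a6 higher. EdgeR called Slc6a4 alone (11.6% of its genes called), and DESeq2 called Slc6a4 and Slc6a6 (11.9%). The authors' deposited table gives log2 fold changes of -0.367 for Slc6a4, 0.208 for Slc6a6, -0.059 for Slc6a8, -0.175 for Slc6a9, -0.099 for Slc6a15 and -0.077 for Slc6a17, drawn towards 0 most strongly for the genes with few reads. At the same threshold Slc6a4 and Slc6a6 are called in the authors' deposited table, in which 12.2% of genes with an adjusted p are.

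**Figure D3:**
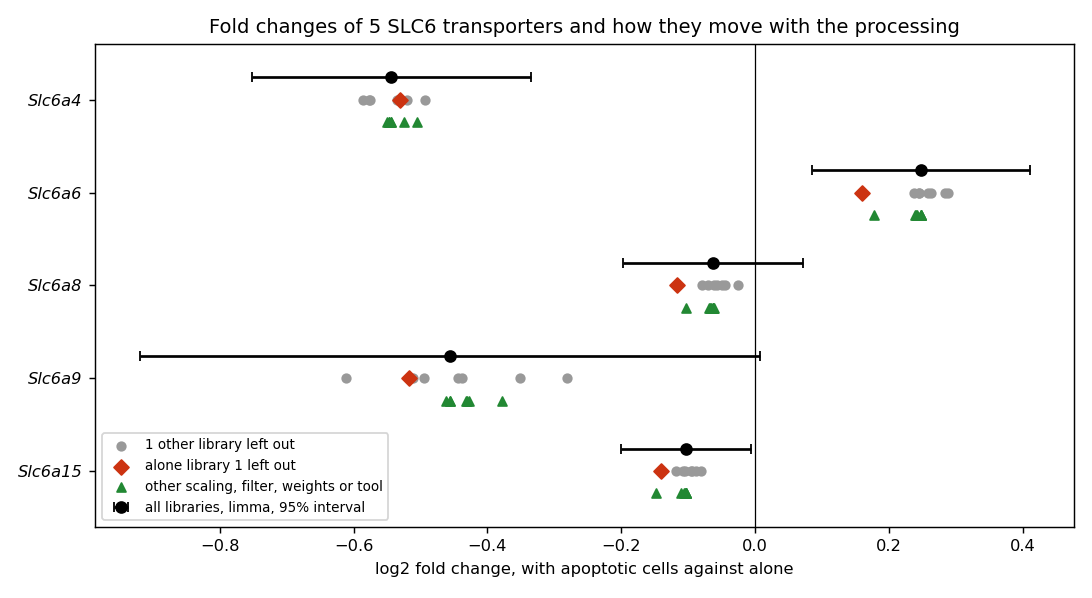
Log2 fold change of the 5 tested transporters with all libraries and its 95% interval (black), with alone library 1 left out (red diamonds), with each other library left out (grey) and under other settings (green). All points of a gene lie on 1 side of 0, and leaving out alone library 1 moved Slc6a6 from 0.25 to 0.16 and Slc6a15 from -0.10 to -0.14.

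The 4 transporters other than Slc6a4 that could be tested were all lower in alone library 1 than the mean of the other alone libraries, by log2 deviations of -0.35 for Slc6a6, -0.25 for Slc6a9, -0.21 for Slc6a8 and -0.15 for Slc6a15. Slc6a4 deviated by 0.05 there, and the median size of the deviation over all tested genes was 0.17. Leaving out that library moved Slc6a4 by less than its SE, from -0.54 to -0.53.

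Genes with a pattern like that of each transporter were sought over the 8 libraries among 8939 genes that averaged 100 normalized counts or more. A correlation over 8 libraries in 2 groups mostly reflects the group difference and the libraries that stand apart, and it is given as a description. For Slc6a4 the 5 closest by Pearson correlation were the interferon-induced gene Oasl (0.984), Mettl7a (0.980), the small Maf factor Mafg (0.977), Gfod1 (0.976) and Herpud1, a protein of endoplasmic reticulum-associated degradation (0.974). All 5 were called lower by limma in co-culture, with log2 fold changes of -0.31 for Gfod1 to -0.63 for Oasl. In each of the 5 genes the co-culture mean was below the alone mean, in Herpud1 1742 ± 50.6 against 1332 ± 29.8 normalized counts (SD, n = 4 per group). A correlation over 0.9 with Slc6a4 was found for 193 of the searched genes (2.16%).

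For Slc6a6 the closest were Tmed5, a cargo receptor between endoplasmic reticulum and Golgi (0.998), Cped1 (0.996) and the zinc transporter Slc39a10 (0.994). All 3 shared its low value in alone library 1, none was called, and 796 genes (8.91%) correlated with Slc6a6 above 0.9. The closest to Slc6a8 were Gmeb1 (0.979), Dopey2 (0.973) and Ankfy1 (0.959), to Slc6a9 Abhd4 (0.971), Pcgf2 (0.953) and Alg12 (0.940), and to Slc6a15 Antxr2 (0.976), Samd9 (0.971) and Aldh6a1, an enzyme of valine breakdown (0.962). None of these 9 was called. A high correlation does not mean a change of like size: Abhd4 ran from 92.2 to 102% of its alone mean, while Slc6a9 ran from 48.9 to 124%. Above 0.9 there were 83 genes for Slc6a8, 59 for Slc6a15 and 13 for Slc6a9. Between members, Pearson correlations ran from -0.75 for Slc6a4 with Slc6a6 to 0.67 for Slc6a8 with Slc6a15.

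**Figure D4:**
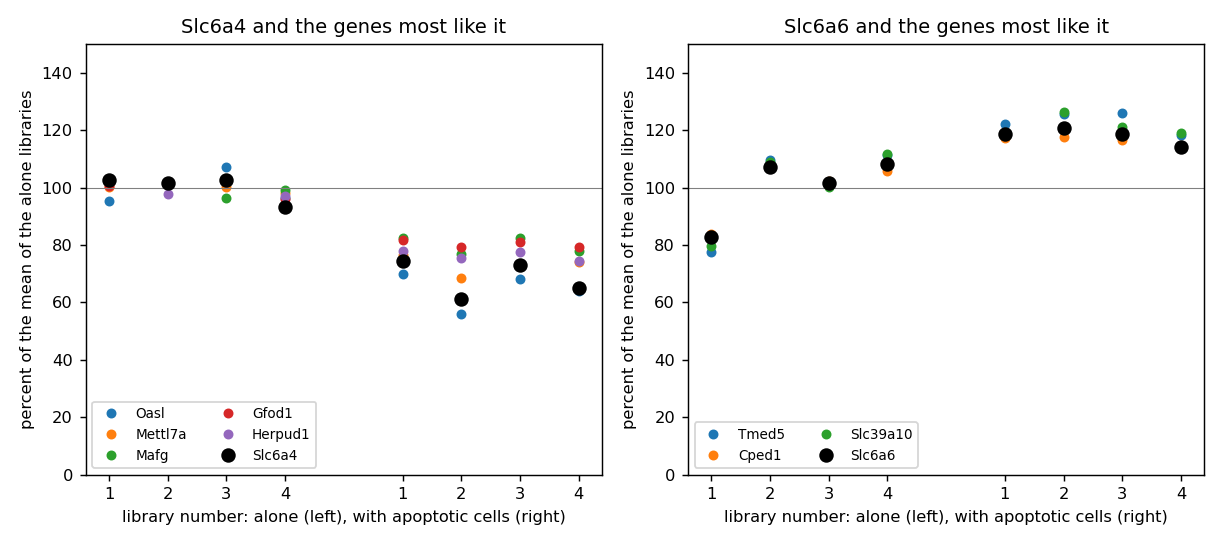
Slc6a4 (left) and Slc6a6 (right) in black with the genes most like each in colour, as percent of the mean of the alone libraries, for the 4 alone and 4 co-culture libraries by number. The genes of the left panel share the lower level with apoptotic cells, and those of the right panel share the low value of alone library 1.

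Position was examined through the order of genes in the RefSeq table for the species (assembly CriGri-PICRH-1.0), with 2 protein-coding genes taken on each side of each transporter after values were known. No coordinates are given because the build behind the counts is not given in the sources used here. Of 24 such neighbours 12 could be tested, and limma called 0, beside 11.7% of all tested genes. At an unadjusted p under 0.05 there was 1, the repair gene Xpc near Slc6a6 (log2 fold change -0.11), and edgeR and DESeq2 called 0. In the fit without alone library 1, which called 26.0% of all tested genes, 2 of the 12 were called, Xpc (-0.14) and Blmh (0.07). The genes on either side of Slc6a4, Blmh and Nsrp1, had log2 fold changes of 0.03 (SE 0.04, limma adjusted p = 0.702) and 0.03 (SE 0.06, limma adjusted p = 0.738). Lsm3, beside Slc6a6, stood at 2066 and 2046 normalized counts (a log2 change of -0.007 with SE 0.07, adjusted p = 0.958 by limma).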

How the data were processed

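RNA-seq was made from 4 libraries of LR73 cells alone and 4 of LR73 cells with apoptotic Jurkat cells. FastQC, STAR, featureCounts and DESeq2 are named in the submitters' processing notes, without versions. Genome build, annotation and strand setting: not given in the sources used here. The authors deposited 1 table with a signal per gene and library, which is the gene's count over the library's size factor. The step of 1 read divides 100% of values above 0 in each library to within 0.01 reads, so reads were recovered. The deposited table also holds, per the file headers, the authors' log2 fold change, a test score and p-values. A row without a name (0.14 to 0.176% of reads) was left out.

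Group was the only term in limma 3.58.1 (R 4.3.3, trend), run on log2(normalized count + 1) of genes that averaged 10 or more, with Benjamini-Hochberg adjustment over all genes. Fold changes on this scale understate those of genes with few reads. As alternatives edgeR 4.0.16 (quasi-likelihood), DESeq2 1.42.0, TMM scaling, a pseudocount of 8 and a mean of at least 100 were run. So were no filter, the replicate block, array weights and leaving out each library. Limma with and without the replicate block, edgeR and DESeq2 were tested on simulated data, in which no library was made to stand apart. The other alternatives were not tested in this way. Columns were matched to labels by number and by the letters AC. The column names of all libraries start with GFP, which the labels do not explain. Of the symbols 21621 (80.7%) were in the RefSeq table, and 2 list genes (taurine list) were found under LOC numbers. No sequences, transcript lengths or genome were used here. The members and lists were chosen with earlier results of these data known. Named genes were the members, family genes with reads, up to 4 called genes of each list (at least the 2 with the smallest adjusted p), and the genes closest in pattern (5 for Slc6a4, 3 for others); other genes were named after their values were seen. Figures were drawn with matplotlib 3.10.9.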

Additional observations from a re-analysis of the deposited data

Results flagged for a closer look

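Among 14 groups of 4 libraries checked (the 6 transporters and Slc6a5 in both conditions), 2 held a library far from the rest of its group, where chance alone flags about 1 in 20. Slc6a4 had 102 normalized counts in alone library 4, while the nearest of the other alone libraries had 112. The coefficient of variation of that group, 4.61%, was below the 9.29% of counting error alone, so nothing is read from this flag. Without alone library 4 the log2 difference of Slc6a4 was -0.58, beside -0.54 with all libraries. Slc6a5 had 0.834 normalized counts in alone library 2, which is 1 read, and 0 in the other alone libraries. A group with reads in only 1 library is flagged whatever their number, so the rate of 1 in 20 does not apply to it.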

How the results depend on the processing

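The 5 tested transporters kept the sign of their log2 difference under each of the 16 alternatives in which they could be fitted, and no value moved by more than its SD within groups. Over left-out libraries the differences ran from -0.59 to -0.49 (Slc6a4), 0.16 to 0.29 (Slc6a6), -0.12 to -0.03 (Slc6a8), -0.61 to -0.28 (Slc6a9) and -0.14 to -0.08 (Slc6a15). The number of transporters called higher was 0 with all libraries, 0 to 1 over left-out libraries, and 1 (Slc6a6) with array weights and with DESeq2. The number called lower was 1, 1 to 2 over left-out libraries, 2 with array weights, and 0 at a mean of at least 100, a filter that leaves Slc6a4 untested. Over all genes 858 were called higher and 716 lower, with ranges over left-out libraries of 416 to 1811 and 356 to 1694 (the highest without alone library 1, the lowest without co-culture library 1), 1804 and 1674 with array weights, and 498 and 400 with the replicate block. The block changed no call of a transporter. Same-numbered libraries had correlations of -0.0898 to 0.0682, and 1 of 4 alone libraries correlated best with its own number, so the numbers were not taken as pairs. Array weights also gave 2 lower traffic genes (0 to 2 over left-out libraries), 2 lower osmolyte genes (1 to 2), 1 higher and 1 lower glycine gene (0 and 0 to 1), and 3 lower branched-chain and proline genes (0 to 3). DESeq2 gave 1 lower glycine gene. Of the chromosomal neighbours, run under the alternatives after seeing the data, 0 were called with all libraries, 0 to 1 higher and 0 to 1 lower over left-out libraries, and 1 lower (Xpc) with array weights. The cause of these moves was not tested. Of the genes named by likeness to Slc6a4, 0 to 3 of 5 were again among the closest 5 when a library was left out, and 0 of 5 by Spearman correlation. Of the 3 named for each other member, left-out libraries kept 1 to 2 for Slc6a6, 0 to 3 for Slc6a8, and 0 to 2 for Slc6a9 and Slc6a15. Spearman correlation kept 0 for Slc6a6, 1 for Slc6a8, 2 for Slc6a9 and 0 for Slc6a15. Levels per transcript length could not be set, so that alternative was not run. Depth limits Slc6a9 (19 to 52 reads per library), Slc6a17 and Slc6a5.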
